A study of Mus musculus with 4 samples.

Results

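Osteoclasts are the multinucleated cells that resorb bone, and 10 genes of their differentiation programme were followed through single-cell RNA-seq of mouse bone marrow: Tnfrsf11a, Nfatc1, Acp5, Ctsk, Dcstamp, Ocstamp, Oscar, Itgb3, Trem2 and Tyrobp. The genes were chosen by symbol, and all 10 were found, each as 1 row, among the 31053 genes measured. The series holds 4 libraries of bone marrow mononuclear cells from C57BL/6 mice, 2 from TLR9-/- mice, which are deficient in Toll-like receptor 9, and 2 from wild-type (WT) mice. Each library came from 1 mouse, and the mice were run in 2 experiments with 1 mouse of each genotype, though the labels do not say that the library numbers mark the experiments. The genotypes were bred in separate cages, so genotype and cage cannot be told apart, and the age of these mice is not given in the sources used here. The study asked whether monocytes and their progenitors in TLR9-/- marrow are prepared for osteoclast formation. Values of single libraries are given below in the order TLR9-/- 1, TLR9-/- 2, WT 1 and WT 2.

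Osteoclasts form when cells of the monocyte lineage receive macrophage colony-stimulating factor through Csf1r and RANK ligand through RANK, the product of Tnfrsf11a. RANK signalling acts together with immunoreceptors such as OSCAR and TREM2, which signal through adaptors including TYROBP (DAP12), and it switches on NFATc1, the transcription factor that drives the late programme. The late genes encode proteins of fusion (Dcstamp and Ocstamp), attachment to bone (Itgb3, the beta3 integrin) and resorption (Acp5, tartrate-resistant acid phosphatase, and Ctsk, cathepsin K, a protease of bone collagen). Mature osteoclasts sit on bone surfaces, while marrow mononuclear cells are flushed from the bone and collected on a density gradient.

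The promoters of a late gene (Ctsk), of an immunoreceptor gene (Oscar) and of the receptor gene (Tnfrsf11a) are shown because Ctsk and Oscar transcripts were found mostly in the same few cells, while Tnfrsf11a transcripts were found mostly in monocytes. Each is the 250 bases before the RefSeq transcription start in GRCm38.p6, read on the gene's own strand, from chr3:95498960-95499209 (plus strand), chr7:3616158-3616407 (minus strand) and chr1:105780473-105780722 (plus strand). Capitals mark the letters GAGGAA, a core that PU.1 can bind, and TGGAAA, a core that NFAT can bind, on either strand.
Ctsk: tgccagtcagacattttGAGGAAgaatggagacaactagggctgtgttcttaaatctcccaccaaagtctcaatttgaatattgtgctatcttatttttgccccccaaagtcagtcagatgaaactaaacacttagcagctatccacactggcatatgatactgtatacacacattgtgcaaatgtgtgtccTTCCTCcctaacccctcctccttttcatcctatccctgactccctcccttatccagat
Oscar: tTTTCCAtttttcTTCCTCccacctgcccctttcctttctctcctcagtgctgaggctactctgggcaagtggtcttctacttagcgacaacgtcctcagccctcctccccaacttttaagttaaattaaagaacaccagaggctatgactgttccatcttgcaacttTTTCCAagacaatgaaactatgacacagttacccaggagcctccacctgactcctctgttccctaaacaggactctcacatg
Tnfrsf11a: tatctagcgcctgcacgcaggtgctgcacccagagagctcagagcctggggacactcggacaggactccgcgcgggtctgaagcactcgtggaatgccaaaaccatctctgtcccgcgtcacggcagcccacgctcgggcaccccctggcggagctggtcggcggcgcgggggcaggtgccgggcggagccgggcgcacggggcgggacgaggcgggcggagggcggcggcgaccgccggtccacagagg
The Ctsk window held 2 matches of GAGGAA, the Oscar window held 1 match of GAGGAA and 2 of TGGAAA, and the Tnfrsf11a window held neither. Among all 32851 promoter windows of the same length, GAGGAA was found in 23.3% and TGGAAA in 18.6%, so these matches are common and are given as a description. The Tnfrsf11a window was rich in G and C (73.6%, with 31 CpG dinucleotides), against 43.2% and 0 CpG in Ctsk and 47.2% and 2 CpG in Oscar, where the median of all windows was 52.4% and 6 CpG. In the gene annotation of GRCm38, Tnfrsf11a lies at chr1:105780718-105847981, Ctsk at chr3:95499256-95509362, Oscar at chr7:3609813-3616157, Tyrobp at chr7:30413760-30417585, Acp5 at chr9:22126727-22135711, Itgb3 at chr11:104608000-104670476, Dcstamp at chr15:39745930-39760938, Ocstamp at chr2:165393760-165400405 and Trem2 at chr17:48346401-48354147.

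The 4 libraries held 40545 barcodes, of which 39167 passed the cell filters (10781, 8918, 10573 and 8895), with medians of 2545, 3618, 1759 and 2287 unique molecular identifiers (UMIs, 1 per captured transcript molecule) per cell. Pairs of libraries shared 112 to 185 barcodes. Tlr9 itself had 41, 48, 120 and 97 UMIs (0.817, 0.750, 3.84 and 2.34 CPM, the UMIs of a gene scaled to a common library total), lower in both TLR9-/- libraries. Clusters were named from marker genes, so that a monocyte here means a monocyte-like cell. The levels by class given below leave out a few cells with high Ctsk, which are described further on. Clustering had placed these with dendritic, erythroid and progenitor cells. The monocyte lineage counted 1928, 1669, 977 and 782 cells, made of precursors (495, 351, 142 and 96), monocytes (1394, 1257, 764 and 628) and macrophages (39, 61, 71 and 58).

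The receptor gene Tnfrsf11a was sparse, with 193 UMIs in 181 cells of all 39167. Monocytes held 98 of these UMIs and had levels of 4.91, 3.69, 6.81 and 2.45 CPM (4.46 ± 1.86, SD, n = 4 libraries), and the WT values enclosed both TLR9-/- values. Their precursors were lower, at 0.770 ± 0.539 CPM from 10 UMIs, and the highest precursor library (1.44 CPM) lay below the lowest monocyte library. Macrophages (5.24 ± 6.07 CPM, 3 UMIs), dendritic cells (3.21 ± 0.34 CPM, 6 UMIs) and plasmacytoid dendritic cells (3.08 ± 1.14 CPM, 29 UMIs) did not differ from monocytes beyond the spread of the libraries. With the Ctsk-high cells counted in, dendritic cells were at 5.80 ± 5.25 CPM (13 UMIs). In neutrophils Tnfrsf11a was at 0.269 ± 0.108 CPM, and no UMI was found in 6369 B cells.

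Among the immunoreceptor genes, Trem2, a lipid-sensing receptor of myeloid cells, had the clearest place in the monocyte lineage. Its level in monocytes was 72.3, 70.4, 59.1 and 60.2 CPM (65.5 ± 6.80, SD, n = 4), and in their precursors 43.1, 40.6, 45.1 and 35.2 CPM (41.0 ± 4.28). The libraries of these classes did not overlap, while the macrophage libraries spread from 9.51 to 66.3 CPM on 20 UMIs and overlapped both. A Trem2 UMI was found in 25.03% of monocytes and 37.0% of precursors, against 0.0628% of B cells. These cells differ in depth, with median UMIs per cell of 13436, 20352, 10820 and 13292 in precursors, 4434, 4933, 3363 and 4144 in monocytes and under 2000 in B lineage cells, so the order of the shares went against that of the CPM and is not read.

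Tyrobp, the shared adaptor of TREM2 and related receptors, was the most abundant of the 10 by UMIs (318471) and was not restricted to the monocyte lineage. Plasmacytoid dendritic cells (5237 ± 482 CPM), NK cells (4827 ± 528), dendritic cells (4666 ± 272) and basophils (4476 ± 603) did not differ beyond their spreads, and monocytes followed at 4112 ± 134 CPM. Macrophages were at 2880 ± 1118 CPM and neutrophils at 2680 ± 230 CPM, without a gap between them. Precursors were at 1605, 1527, 1822 and 1982 CPM, below every neutrophil library. A Tyrobp UMI was found in 99.7% of monocytes, 74.7% of macrophages and 14.1% of B cells.

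Nfatc1 and Itgb3, the transcription factor and the integrin subunit, had their highest levels outside the monocyte lineage. Nfatc1 was at 62.8 ± 4.86 CPM in B cells and 50.03 ± 10.1 CPM in T cells, with NK cells too variable to place (65.6 ± 46.5), against 18.9 ± 3.04 CPM in monocytes. NFATc1 is known from lymphocyte activation as well as from osteoclasts. Itgb3 was at 236, 442, 1427 and 377 CPM in 94 megakaryocyte progenitors, where it pairs with Itga2b as the platelet fibrinogen receptor. Monocytes had 13.3 ± 0.884 CPM of Itgb3, close to neutrophils at 14.1 ± 2.38 CPM and below T cells at 24.1 ± 1.27 CPM.

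Acp5 was low in the monocyte lineage and high in lymphocytes and red cells. B cells had 221, 271, 191 and 198 CPM (220 ± 36.2), T cells 196, 194, 164 and 174 CPM (182 ± 15.4) and erythroid cells 82.6, 147, 111 and 131 CPM (118 ± 27.9). B and T cells overlapped and erythroid cells lay below the T cells in every library. Monocytes had 9.57, 10.9, 13.6 and 12.2 CPM and precursors 4.45, 4.66, 6.45 and 6.47 CPM, so that each B cell library exceeded each monocyte library by more than 10 times. Macrophages were at 77.4 ± 53.6 CPM on 41 UMIs, overlapping the erythroid cells.

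Ctsk, Dcstamp, Ocstamp and Oscar had few UMIs in the named classes. Ctsk reached 68.8 ± 31.9 CPM in mesenchymal cells (5, 10, 5 and 3 UMIs in 18, 17, 12 and 16 cells). It stayed under 2 CPM in each of the other classes once the Ctsk-high cells described below were taken out of them. With those cells counted in, Ctsk was at 238 CPM in dendritic cells, 32.4 CPM in stem and progenitor cells and 24.0 CPM in erythroid cells. The monocyte lineage held 0, 2, 0 and 0 UMIs of Ctsk, 1, 1, 0 and 0 of Dcstamp, 1, 0, 0 and 0 of Ocstamp and 1, 2, 0 and 0 of Oscar. These counts were too low to test, and a count of 0 allows up to 3 UMIs. No WT library had a UMI of any of these 4 genes in the monocyte lineage. The WT libraries were also the shallower ones there, with 14788939, 15630638, 4945402 and 4766663 UMIs of all genes.

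**Figure D1:**
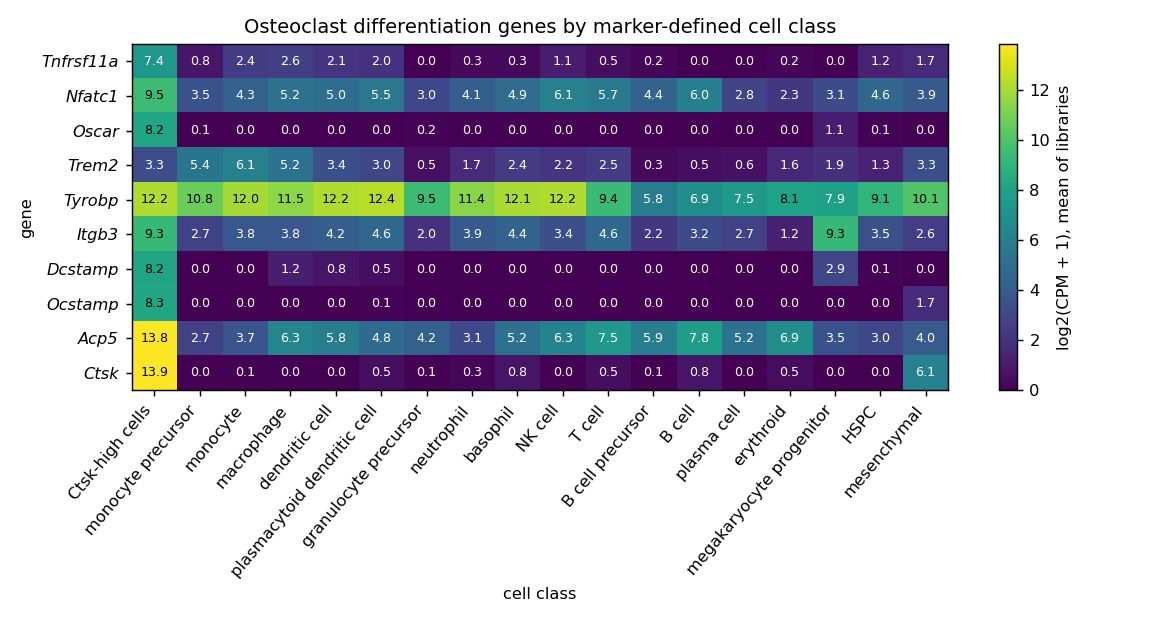
Mean level of the 10 genes in each cell class, as log2(CPM + 1) of the mean over libraries, with genes as rows and classes as columns. The first column holds the 8 Ctsk-high cells described in the text, found in 2 libraries and picked for Ctsk, where every gene but Trem2 and Tyrobp has its brightest or joint brightest cell of the row.

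Most UMIs of Ctsk, Ocstamp, Oscar and Dcstamp sat in 8 cells. With a limit of 10 Ctsk UMIs, set after the counts were seen, 8 kept cells qualified, 5 in TLR9-/- 2 and 3 in WT 1, with 0 in the other two libraries. They made up 0.0561% of the cells in TLR9-/- 2 (exact binomial 95% interval 0.0182 to 0.131%) and 0.0284% in WT 1 (0.00585 to 0.0829%). Counts of 0 allow up to 0.0278% in TLR9-/- 1 and 0.0337% in WT 2, so no difference between genotypes was detectable. These intervals and limits cover counting error only. The cells just inside the limit had 63 and 95 Ctsk UMIs, and the highest outside it had 3, so any limit from 4 to 63 gives the same cells.

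The 8 cells held 1409 of 1475 Ctsk UMIs (95.5%), 32 of 35 Ocstamp UMIs (91.4%), 25 of 32 Oscar UMIs (78.1%) and 29 of 39 Dcstamp UMIs (74.4%). By contrast they held 12.5% of the Acp5 UMIs, 8.29% of Tnfrsf11a, 2.82% of Itgb3, 1.94% of Nfatc1, 0.153% of Tyrobp and 0.0381% of Trem2. In TLR9-/- 2 the cells had 63, 95, 118, 121 and 292 Ctsk UMIs with 82, 150, 123, 108 and 251 Acp5 UMIs, in the same order of cells. In WT 1 they had 111, 188 and 421 Ctsk UMIs with 101, 209 and 355 Acp5 UMIs. The genes of both resorption enzymes were thus found together in every one of the 8 cells, at 63 or more UMIs each.

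The receptor and the regulator were there too. Tnfrsf11a was found in 8 of the 8 cells with 1 to 5 UMIs, Nfatc1 in 8 with 1 to 14, Itgb3 in 8 with 2 to 22, Ocstamp in 8 with 1 to 9, Dcstamp in 6 with up to 9 and Oscar in 5 with up to 17. Each cell had 8 or 9 of the 10 genes. Pooled over the 8 cells (97859 UMIs), Tnfrsf11a was at 164 CPM (exact Poisson 95% interval 93.5 to 266), Nfatc1 at 705 CPM (549 to 892) and Itgb3 at 572 CPM (432 to 743). In monocytes the mean levels of the same genes were 4.46, 18.9 and 13.3 CPM. The Poisson intervals here and in the next paragraph cover counting error only and treat the pooled cells as sharing 1 level. For Itgb3 neither library lay inside its interval. The cells of TLR9-/- 2 had 314 CPM of it, below the interval, while those of WT 1 reached 937 CPM, above it. Both libraries lay inside the intervals of Tnfrsf11a and Nfatc1. The cells were picked by Ctsk, so these values are a description and carry no test.

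Trem2 went the other way. The 8 cells held 1 Trem2 UMI in all, 10.2 CPM with an exact Poisson 95% interval of 0.259 to 56.9 CPM, below the 59.1 to 72.3 CPM of the monocyte libraries, while the precursor libraries (35.2 to 45.1 CPM) lay inside this interval. Tyrobp, its adaptor, was found in 8 of 8 with 12 to 100 UMIs. Pooled over the 8 cells it was at 4966 CPM (4535 to 5428), near the means of dendritic and NK cells, with the monocyte libraries at 3990 to 4258 CPM. The pool hid a split by library, since the cells of TLR9-/- 2 (339 UMIs) lay above the monocyte libraries and those of WT 1 (147 UMIs) lay below them.

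Other genes of mature osteoclasts, which did not pick the cells, were present beside them. Mmp9, a matrix protease that neutrophils also make, had 15 to 187 UMIs in each cell. Calcr, the calcitonin receptor, had 13 UMIs in 6 of the cells and none in any other kept cell. Atp6v0d2, a subunit of the proton pump, had 93 of its 112 UMIs there, and Tcirg1 and Clcn7, of the pump and the chloride transporter, were found in 8 of 8. Car2 was found in 6 of the cells, Siglec15 in 5 and Ostm1 in 4. Csf1r, the M-CSF receptor, had 120 UMIs in 8 of 8 cells. Some single markers of other cells, picked after their values were seen, were at 0 in all 8 (Lyz2, Ccr2, Elane, Cd34, Adgre1, Col1a1, Cxcl12, Cd79a, Hba-a1 and Mki67). The marker lists they come from were not at 0. The monocyte list (13 genes, some shared with other myeloid cells) had 1 to 52 UMIs in a cell, the macrophage list 0 to 71, the B cell list 0 to 54, the dendritic cell list 0 to 45 and the erythroid list 1 to 88.

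Clustering did not gather them, but the 10 genes and others such as Mmp9, Calcr and Atp6v0d2 were left out of the genes it used. Of the 8 cells, 4 were placed with dendritic cells, 3 with erythroid cells and 1 with stem and progenitor cells, and none was marked as a doublet. They had 4189 to 18997 UMIs (median 12618). In 6 of the cells the highest lists were plasmacytoid dendritic cell (63 UMIs) and B cell (54) in 1 cell of TLR9-/- 2, macrophage in 2 others (71 and 43), monocyte in 1 cell of WT 1 (52) and erythroid in its other two (29 and 88). The part of other cells' RNA in these barcodes was not tested. Outside the 8 cells, 2 plasmacytoid dendritic cells of WT 1 held several of the genes at low counts, 1 with Acp5 at 6 UMIs and Dcstamp at 1, the other with Dcstamp at 3, Acp5 at 3 and Tnfrsf11a at 2.

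**Figure D2:**
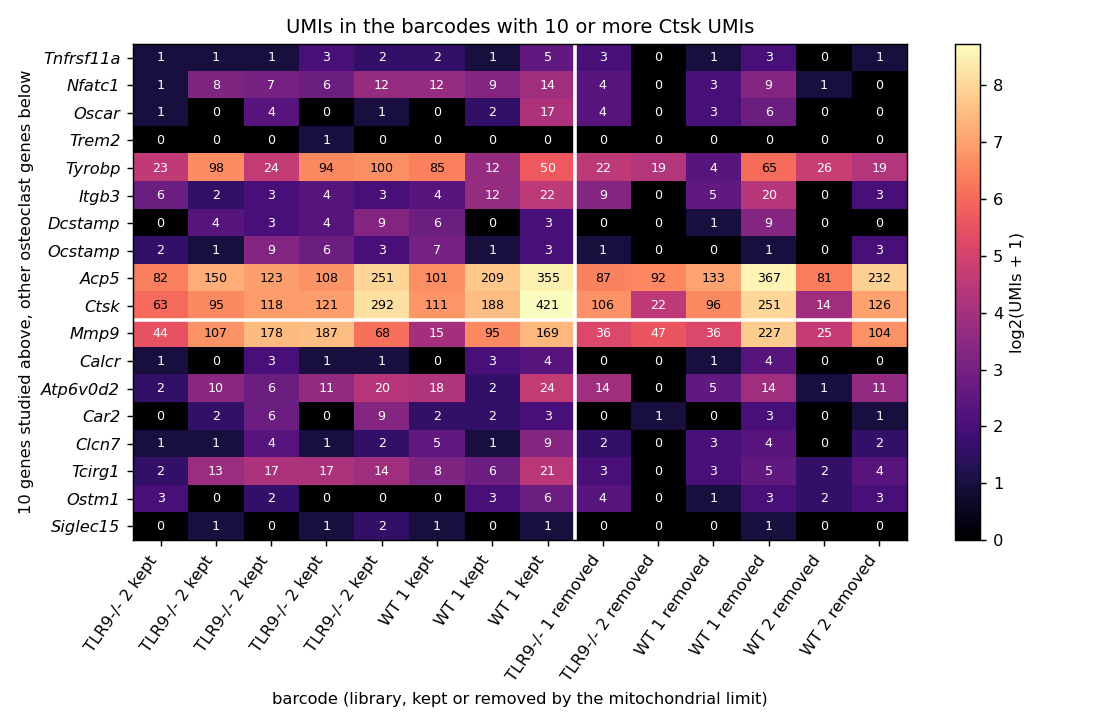
UMIs in each of the 14 barcodes with 10 or more Ctsk UMIs (columns, by library, the 8 kept cells left of the vertical line and the 6 removed ones right of it), with the 10 genes above the horizontal line and 8 other genes of mature osteoclasts below it. The numbers are UMIs and the colour is log2(UMIs + 1), and Trem2 is at 0 in 13 of the 14 columns.

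The limit on mitochondrial transcripts decided how many of these barcodes were kept. Of all 40545 barcodes, 14 had 10 or more Ctsk UMIs (1, 6, 5 and 2), and 6 of them (1, 1, 2 and 2) were removed, all by the 10% limit on mitochondrial UMIs. That is 42.9% of the barcodes with this much Ctsk, against 3.40% of all barcodes removed by all filters together. The removed barcode of TLR9-/- 1 had 106 Ctsk and 87 Acp5 UMIs at 12.0% mitochondrial UMIs, and that of TLR9-/- 2 had 22 and 92 at 11.5%. Those of WT 1 had 96 and 133 at 13.4%, and 251 and 367 at 10.7%. Those of WT 2 had 14 and 81 at 12.1%, and 126 and 232 at 23.3%. Trem2 was at 0 UMIs in each of the 6. A limit of 5, 10, 15, 20 or 30% kept 2, 8, 13, 13 or 14 such barcodes, and from 15% up all 4 libraries held at least 1.

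**Figure D3:**
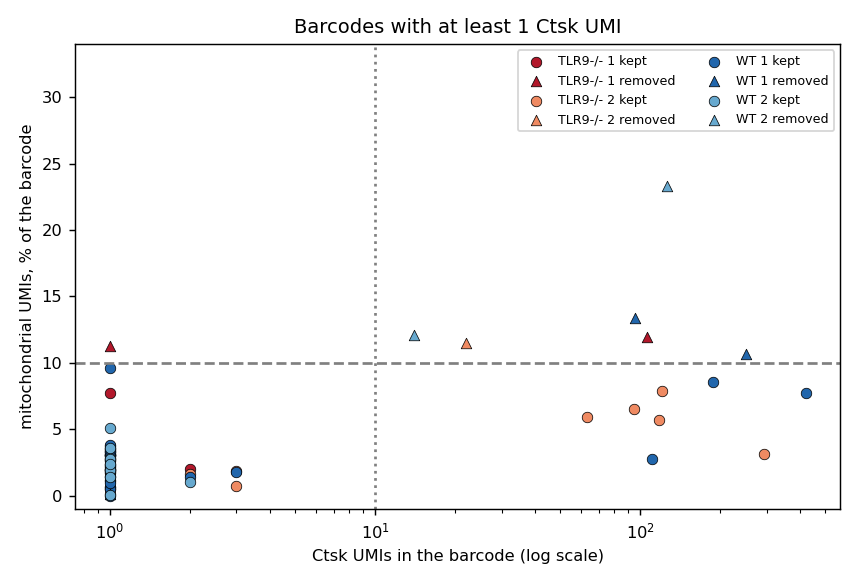
Ctsk UMIs (x axis, log scale) and mitochondrial share of UMIs in percent (y axis) of every barcode with at least 1 Ctsk UMI, by library, circles for kept and triangles for removed barcodes. The dashed line is the 10% limit and the dotted line 10 Ctsk UMIs; 8 kept and 6 removed barcodes lie to the right of it.

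No difference between genotypes in these genes passed the threshold with the libraries taken as unpaired. Acp5 and Tyrobp each passed it in 1 class with same-numbered libraries taken as pairs, as given below. UMIs were summed per library and class and tested with edgeR's quasi-likelihood test over all genes, with an adjusted p under 0.05 as a call. In monocyte lineage cells 6 of the 10 genes could be tested and 0 were called, where 1.10% of 11035 genes were called. In precursors it was 0 of 5 (0.372% of all genes), in monocytes 0 of 6 (0.538%), in macrophages 0 of 2 (1.75%) and in neutrophil lineage cells 0 of 5 (0.667%). Of these 24 tests 4 had an unadjusted p under 0.05, 2 in the lineage and 2 in macrophages, where 13.8 and 12.6% of all genes had one. DESeq2 called 0 of the 24, with 2 under that p. Ctsk, Dcstamp, Ocstamp and Oscar had too few UMIs in each of the 5 classes. With same-numbered libraries taken as pairs, edgeR called Acp5 in the lineage and Tyrobp in macrophages. The labels do not say that these numbers mark the experiments. Same-numbered libraries were alike in barcodes, with 11069 and 11108 in those numbered 1 and 9173 and 9195 in those numbered 2. In an alternative clustering 1 unnamed cluster held 169, 4, 126 and 3 cells. The deviations of same-numbered libraries correlated at 0.468 in the lineage and at 0.0117 in macrophages. The values of this paired fit are given in the last section.

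In monocytes, Tnfrsf11a was at 4.98, 3.68, 6.84 and 2.43 normalised CPM (38, 30, 22 and 8 UMIs). The WT libraries lay on either side of the TLR9-/- libraries, and the log2 fold change of TLR9-/- over WT was -0.10 (SE 0.46, adjusted p = 0.979, edgeR). In precursors Tnfrsf11a had 6, 1, 1 and 2 UMIs, too few to test, and in macrophages 1, 2, 0 and 0. Over the whole lineage it was at 3.08, 2.09, 4.69 and 2.09 normalised CPM, with a log2 fold change of -0.40 (SE 0.44, adjusted p = 0.724, edgeR). The direction turned to 0.30 without WT 1, and in monocytes to 0.82.

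Trem2 in monocytes was at 73.2, 70.2, 59.4 and 59.9 normalised CPM. Neither WT library reached the TLR9-/- libraries (log2 fold change 0.27, SE 0.16, adjusted p = 0.739, edgeR). In precursors the groups overlapped, at 42.5, 39.4, 45.6 and 36.7 normalised CPM (log2 fold change -0.01, SE 0.20). Nfatc1 in monocytes was at 15.9, 17.3, 19.9 and 22.5 normalised CPM, lower in both TLR9-/- libraries (log2 fold change -0.35, SE 0.20, adjusted p = 0.725, edgeR). Itgb3 in monocytes was at 13.2, 12.9, 14.6 and 12.5 normalised CPM, with overlapping groups (log2 fold change -0.05, SE 0.22).

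Acp5 had the lowest p of the genes in the monocyte lineage. Its levels were 7.40, 8.35, 13.7 and 13.6 normalised CPM, lower in both TLR9-/- libraries (log2 fold change -0.79, SE 0.19, adjusted p = 0.129, edgeR). Within monocytes the difference was smaller, at 9.69, 10.9, 13.7 and 12.2 normalised CPM (log2 fold change -0.32, SE 0.23, adjusted p = 0.792, edgeR), and within precursors the levels were 4.40, 4.53, 6.52 and 6.74 (log2 fold change -0.57, SE 0.38, adjusted p = 0.754, edgeR). Precursors, in which Acp5 was lower than in monocytes, were 25.7, 21.0, 14.5 and 12.3% of the lineage. B cell markers (17 genes, all detected) summed to 719, 832, 1544 and 1179 CPM in the lineage, and Acp5 is high in B cells. This list includes class II antigen presentation genes, which are not particular to B cells. Erythroid markers (19 genes) summed to 303, 398, 1149 and 327 CPM. Whether the precursor share or RNA of other cells had a part in the Acp5 difference was not tested. Subclusters of the lineage were then left out by rules set after seeing the data. The first rule removed those with at least 3 neutrophil, erythroid or B cell markers among the 10 leading genes (130, 29 and 140 cells). The log2 fold change was then -0.58 (adjusted p = 0.269, edgeR). Subclusters of 863 and 663 cells, also named after neutrophils, had fewer such markers and stayed in. A wider rule also removed a subcluster led by B cell precursor genes (193 cells) and one led by class II antigen presentation genes (383 cells). Isg15 and Irf7 were also among the leading genes of those 383 cells, and 98.4% of them had a Tyrobp UMI. They were not shown to be of another lineage, and the rule left 6, 15, 3 and 8 macrophages. The Acp5 log2 fold change was then -0.32 in the lineage (SE 0.26, adjusted p = 0.683, edgeR) and -0.02 in monocytes (SE 0.30). Under the wider rule Trem2 was at -0.003 in the lineage and 0.16 in monocytes.

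Tyrobp in macrophages had the largest log2 fold change above 0. Its levels were 4443, 5002, 2808 and 1912 normalised CPM in 39, 61, 71 and 58 cells, higher in both TLR9-/- libraries (log2 fold change 1.00, SE 0.33, adjusted p = 0.134, edgeR). In precursors (1585, 1483, 1842 and 2064 normalised CPM) both TLR9-/- libraries were lower (log2 fold change -0.35, SE 0.17, adjusted p = 0.662, edgeR). In monocytes the 4 libraries lay between 3979 and 4231 normalised CPM (log2 fold change -0.07, SE 0.16). In the macrophage clusters B cell markers summed to 22013, 13812, 13153 and 18425 CPM and neutrophil markers to 16267, 17071, 17036 and 6047 CPM. The B cell list includes class II antigen presentation genes, and the study named its macrophages partly by such a gene (H2-Aa). These sums alone therefore do not show how much RNA of other cells was there. A Tyrobp UMI was found in 74.4, 91.8, 62.0 and 72.4% of macrophages. Leaving out WT 1 gave a call (log2 fold change 1.34, adjusted p = 0.0245, edgeR), in a fit where the lone WT library is assumed to vary like the TLR9-/- pair, and the part of the other cells' RNA was not tested. Acp5 in macrophages was at 41.4, 55.4, 95.1 and 184 normalised CPM from 3, 9, 13 and 16 UMIs, lower in both TLR9-/- libraries (log2 fold change -1.39, SE 0.61, adjusted p = 0.315, edgeR).

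In neutrophil lineage cells, the nearest myeloid relatives tested, no gene of the 5 came near the threshold. Their log2 fold changes were -0.37 for Trem2 (14, 24, 8 and 19 UMIs), -0.17 for Itgb3, -0.10 for Tyrobp, -0.09 for Acp5 and 0.01 for Nfatc1, with adjusted p of 0.790 or more (edgeR).

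Counted by groups that did not overlap, 1 of the 6 tested genes was higher and 3 were lower in both TLR9-/- libraries of the monocyte lineage, where 46.0% of all genes did not overlap. In precursors 0 were higher and 3 lower (39.3% of all genes), in monocytes 1 and 3 (38.5%), in macrophages 1 and 1 (41.3%) and in neutrophil lineage cells 0 and 2 (42.4%). These percentages count both directions. Of all genes, 23.9, 20.2, 19.9, 20.8 and 21.3% were lower in both TLR9-/- libraries in the 5 classes, in the same order. The median log2 fold change of the tested genes was -0.34, -0.21, -0.08, -0.19 and -0.10 in these classes, beside -0.02, -0.02, -0.01, 0.01 and -0.02 over all genes. With 5 or 6 genes a class these counts are a description. With 2 mice a group, each unpaired edgeR p-value sets the genotype difference against the spread between libraries of the same genotype, estimated with information from all genes. The 2 mice of a genotype were run in different experiments, so this spread holds both mouse and experiment.

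**Figure D4:**
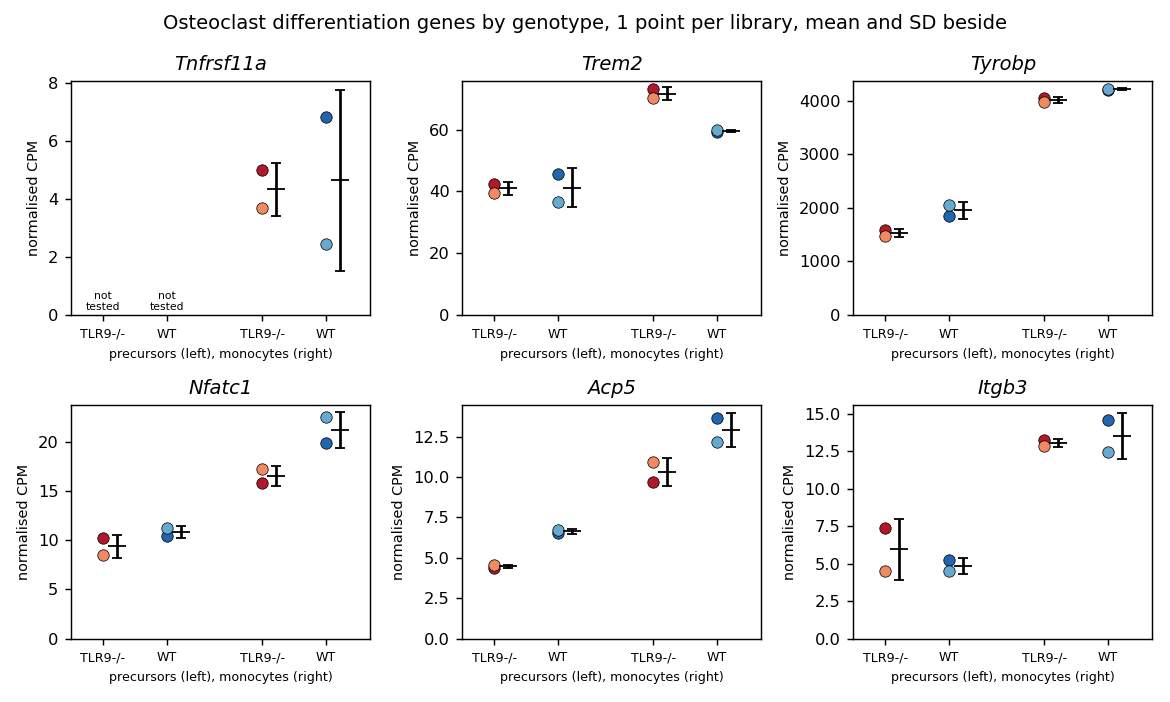
Normalised CPM (linear y axes from 0) of 6 of the genes in monocyte precursors and monocytes, 1 point per library (red shades TLR9-/-, blue shades WT), with the mean and SD of the 2 libraries of a genotype beside the points. In monocytes Trem2 is higher in both TLR9-/- libraries, at 70.2 and 73.2 against 59.4 and 59.9, and it overlaps in precursors. Of the 6 genes in monocytes 3 are lower in both TLR9-/- libraries, and 38.5% of all genes tested there do not overlap. The WT libraries of Tnfrsf11a are the farthest apart.

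The share of RANK-expressing cells was compared as the share of cells with a Tnfrsf11a UMI. In monocyte lineage cells it was 2.33% (exact binomial 95% interval 1.71 to 3.11%, 45 cells), 1.86% (1.27 to 2.63%, 31 cells), 2.35% (1.498 to 3.51%, 23 cells) and 1.15% (0.528 to 2.17%, 9 cells). The TLR9-/- values lay within the span of the WT values. At medians of 6111, 6111, 3774 and 4338 UMIs per cell the TLR9-/- libraries were the deeper ones, so each cell was thinned to 1000 UMIs, which left out 44, 40, 68 and 46 shallower cells. The shares were then 0.475, 0.343, 0.632 and 0.236%, a mean of 0.409% ± 0.093 against 0.434% ± 0.280 (SD, n = 2 libraries each), with a difference of -0.0249 percentage points (two-sided exact permutation p = 1.0, where the smallest possible with 2 against 2 is 0.33). As a background, 0.0947, 0, 0.0200 and 0% of B lineage cells (median 1210, 1718, 1120 and 1518 UMIs) and 0.171, 0.308, 0 and 0% of T cells had a Tnfrsf11a UMI without thinning. Counted against all cells of a library instead, monocyte lineage cells with a Tnfrsf11a UMI were 41.7, 34.8, 21.8 and 10.1 per 10000 cells, and 8.31, 6.27, 5.44 and 1.96 per 10000 after thinning, higher in both TLR9-/- libraries on either count. The monocyte lineage was 17.9, 18.7, 9.24 and 8.79% of the cells. This count thus combines the size of the lineage with the share within it, and no test of 2 against 2 libraries can go below p = 0.33 (exact permutation).

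**Figure D5:**
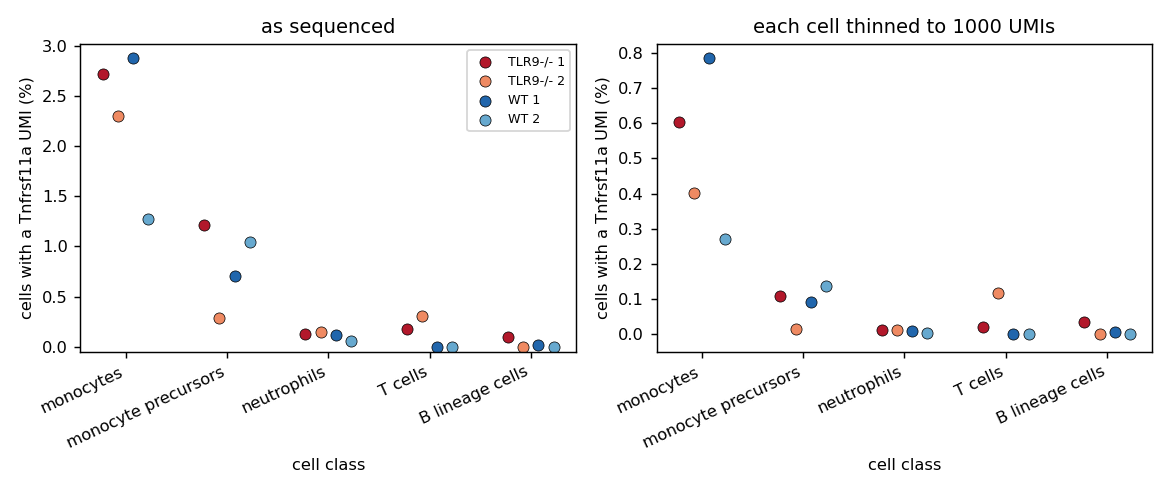
Share of cells with a Tnfrsf11a UMI in percent (y axis), by cell class (x axis), 1 point per library, as sequenced (left) and with each cell thinned to 1000 UMIs (right). Monocytes stand at 1.27 to 2.88% as sequenced, above neutrophils, T cells and B lineage cells, and the lowest monocyte value is WT 2.

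The wider pathway was described with 81 genes in 6 lists: ligands and decoy, other receptors, signal transducers, transcription factors, inhibitors, and fusion and resorption. Between 28 and 69 of these could be tested in a class, 295 tests in all, of which 0 were called by edgeR, 38 had an unadjusted p under 0.05 (7.64 to 13.8% of all genes by class), and DESeq2 called 1 (Id2, an inhibitor of differentiation, in neutrophil lineage cells). In the monocyte lineage 2442 of all 11035 genes were higher and 2635 lower (23.9%) in both TLR9-/- libraries. Of the 69 pathway genes, 5 were higher and 29 lower, with a median log2 fold change of -0.25. These counts were not tested. The largest difference there was in Car2, carbonic anhydrase II, which makes the acid that dissolves bone mineral and is abundant in red cells. It was at 6.99, 4.62, 8.96 and 13.8 normalised CPM, lower in both TLR9-/- libraries (log2 fold change -0.97, SE 0.29, adjusted p = 0.207, edgeR). Without TLR9-/- 1 the log2 fold change of Car2 was -1.28, with the lone TLR9-/- library assumed to vary like the WT pair. Erythroid markers summed to 303, 398, 1149 and 327 CPM in the lineage, and their part in the Car2 difference was not tested. Csf1, the gene of M-CSF, was next at 0.548, 1.26, 2.24 and 1.04 normalised CPM with overlapping groups (log2 fold change -0.84, SE 0.60, adjusted p = 0.564, edgeR). Outside the lineage, the RANK ligand gene Tnfsf11 had its highest level in mesenchymal cells (18.0 ± 17.3 CPM, 5 UMIs), with T cells at 6.00 ± 2.08 CPM (22 UMIs), while its decoy Tnfrsf11b had 2 UMIs in all cells. Csf1 was highest in basophils (199.9 ± 68.2 CPM), and its receptor gene Csf1r in macrophages (198 ± 47.2 CPM) and monocytes (134 ± 10.3 CPM).

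The genes whose class pattern was most like each of the 10 were taken from Pearson's r of log2(CPM + 1) over 17 cell classes, without the Ctsk-high cells. The classes share libraries and differ in depth, and r is given without a test. Tnfrsf11a was most like Abca9 (r = 0.933), Psap (0.926) and Cd68 (0.922), and Trem2 like C1galt1c1 (0.931), F13a1 (0.926) and Stxbp6 (0.906), of which F13a1 is a marker used to name monocytes. Tyrobp was most like Fcer1g (0.938), the other common adaptor of these receptors, and Anxa2 (0.937). Itgb3 went with Ppbp (0.909), a platelet chemokine, and Ctsk with Bglap2 (0.985), an osteocalcin gene, and Col5a2 (0.984). Nfatc1 was most like Trim12a (0.948) and Acp5 like Acbd4 (0.809), the lowest first value of the 7 genes with enough UMIs over all cells.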

How the data were processed

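Bone marrow mononuclear cells were profiled with 10x 5′ single-cell RNA-seq, 1 library per mouse. The deposited counts are UMI counts per gene and barcode made by the authors with Cell Ranger and STAR on mm10 (the submitters' processing notes also name Seurat 2.3.4). Cells with under 200 or over 10000 genes were removed as in the study's methods, together with cells over 10% mitochondrial UMIs (the methods print 0.10%, read here as 10%), which left 39167 of 40545 barcodes and 31210188 to 63958243 UMIs per library. Doublets were scored by library and kept (2.87, 4.71, 3.79 and 7.12% marked in TLR9-/- 1 and 2 and WT 1 and 2). In WT 2 the automatic threshold marked 1 cell, so the highest scores at the expected rate were marked instead. The 10 genes and the pathway lists were left out of the 2000 variable genes, and clusters were made with scanpy 1.11.5 from 30 components and whole-number shared neighbours (20 neighbours, at least 3 shared, resolution 1). This gave 31 clusters, and 985 cells stayed unnamed. An earlier graph was dropped because labels moved with numerical settings. The division of precursor clusters, the rule that left clusters led by immunoglobulin or haemoglobin genes unnamed, and the limit of 10 Ctsk UMIs were set after clusters and values were seen.

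UMIs summed per library and class (at least 10 cells in every library) were tested in edgeR 4.0.16 (quasi-likelihood, TMM, filterByExpr, Benjamini-Hochberg over all genes), with DESeq2 1.42.0 as an alternative. The scripts were tested on simulated counts. Of simulated 2-fold changes, 71% were recovered in the monocyte lineage, 73% in precursors, 62% in monocytes, 11% in macrophages and 62% in neutrophil lineage cells. The genes changed there had over 200 UMIs (over 50 in macrophages), more than Tnfrsf11a had in any of these classes. The 10 genes and all lists were chosen with earlier results of these data known. The text names the 10 genes, pathway genes called in a class (there were 0 by edgeR), the 2 pathway genes with the largest absolute log2 fold change in monocyte lineage cells, and up to 3 most alike genes for each gene with at least 50 UMIs, among genes with at least 500. Genes named as markers, ligands or mature osteoclast genes, and Id2, were chosen after their values were seen. Promoters of 5 of the 10 genes matched the RefSeq table. Other alternatives were the filter on low counts, doublets, clustering, each library left out and the replicate number as a block. Precision of the genotype comparison is limited by having 2 mice a group. It is limited further by low counts for Tnfrsf11a, Dcstamp, Ocstamp and Oscar, each with under 200 UMIs in all.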

Additional observations from a re-analysis of the deposited data

Results flagged for a closer look

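Trem2 differed in opposite directions in 2 classes. In monocytes its log2 fold change of TLR9-/- over WT was 0.27, with both TLR9-/- libraries above both WT libraries, and in neutrophil lineage cells it was -0.37, with both below, on 14, 24, 8 and 19 UMIs. The difference between the classes was not tested, and with plain neighbours in the clustering the neutrophil value was 0.05.

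Tyrobp lay above both WT libraries in macrophages (log2 fold change 1.00) and lay below them in monocyte precursors (-0.35), monocytes (-0.071) and neutrophil lineage cells (-0.10). These differences between classes were not tested, and none of the 4 values passed the threshold of edgeR's quasi-likelihood test with unpaired libraries.

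Barcodes with 10 or more Ctsk UMIs were also found among those removed by the mitochondrial limit, 1 in TLR9-/- 1, 1 in TLR9-/- 2, 2 in WT 1 and 2 in WT 2. They are outside all comparisons between genotypes.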

How the results depend on the processing

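Of 319 alternative values of the log2 fold changes of the 10 genes, 295 kept their direction and side of the threshold, 21 changed sign and 3 gained a call. Ctsk, Dcstamp, Ocstamp and Oscar had too few UMIs to be tested in the 5 classes. No macrophages were named with plain neighbours, so that setting gave no value there. The clusterings at resolution 1.5 and on plain neighbours, the subclusters left out (at least 3 markers of another class among the 10 leading genes, a criterion changed after the subclusters were seen, and a wider rule over every other lineage's list) and the other mitochondrial limits were chosen after seeing the data. The causes of the changes below were not tested.

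The same-numbered libraries formed only 2 pairs, and the labels do not say that a number marks an experiment. The deviations of the paired libraries correlated at 0.0117 in macrophages and at 0.369 to 0.506 in the other classes. With the replicate block, genes called were 755 against 121 in monocyte lineage cells, 147 against 36 in precursors, 353 against 55 in monocytes, 444 against 72 in neutrophil lineage cells and 48 against 35 in macrophages. The block gave calls for Acp5 in the lineage (log2 fold change -0.79, adjusted p = 0.0209, edgeR) and Tyrobp in macrophages (1.02, adjusted p = 0.0366, edgeR), whose adjusted p ranged up to 0.683 and 0.959 over the other alternatives. It also gave calls for Car2 in the lineage (-0.98, adjusted p = 0.0299, edgeR) and in neutrophil lineage cells (-0.70, adjusted p = 0.0376, edgeR), whose adjusted p ranged up to 0.585 and 0.780. In neutrophil lineage cells it gave -0.013 for Nfatc1. For the Tnfrsf11a share, pair 1 of the block gave -0.157 and pair 2 gave 0.107 percentage points.

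DESeq2 called 187 genes in the lineage and 113 in neutrophil lineage cells, and without a filter on low counts 277 and 344 were called. In precursors 56 were called with the 10 genes and the lists kept among the variable genes. In macrophages DESeq2, resolution 1.5, the marked doublets left out, and the genes and lists kept each gave 0 calls (94, 214, 201 and 198 genes at an unadjusted p under 0.05, against 252 as reported), and 11 were called without the subclusters that resembled other cells. The wider rule left 75 called in the lineage, no value in macrophages and a Trem2 log2 fold change of -0.0034 in the lineage. The Tnfrsf11a share not thinned differed by 0.343 percentage points. Mitochondrial limits of 5, 15, 20 and 30% kept 2, 13, 13 and 14 barcodes with 10 or more Ctsk UMIs.

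With each library left out in turn, which leaves 1 library in a group and assumes that it varies like the other pair, genes called ranged from 139 to 266 in the lineage (265 without TLR9-/- 1, 266 without TLR9-/- 2), 11 to 68 in precursors (11 without WT 1 or WT 2, 68 without TLR9-/- 1), 39 to 153 in monocytes (153 without TLR9-/- 1, 148 without TLR9-/- 2), 7 to 108 in macrophages (12 and 7 without TLR9-/- 1 and 2, 108 and 63 without WT 1 and 2) and 89 to 139 in neutrophil lineage cells (139 without TLR9-/- 1), and the Tnfrsf11a share difference from -0.223 to 0.173 percentage points. The log2 fold change of Tnfrsf11a ranged from -0.84 to 0.30 in the lineage and from -0.65 to 0.82 in monocytes, where it turned without WT 1 or TLR9-/- 2. That of Trem2 in precursors ranged from -0.16 to 0.18, and of Itgb3 in monocytes from -0.15 to 0.068. In neutrophil lineage cells the ranges were -0.11 to 0.21 for Nfatc1, -0.28 to 0.062 for Acp5, -0.40 to 0.091 for Itgb3 and -0.21 to 0.067 for Csf1. Signs also turned for Trem2 in precursors with plain neighbours (0.12) and without the filter (0.013), and in neutrophil lineage cells for Nfatc1 at resolution 1.5 (-0.090), with plain neighbours (-0.080) and with the genes and lists kept (-0.085), for Acp5 without doublets (0.14), for Trem2 with plain neighbours (0.051) and the genes and lists kept (0.084), and for Csf1 without the filter (0.0019).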
